A study of Mus musculus with 4 samples.

Results

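The histone genes of the mouse were followed in RNA bound to the chromatin of C2C12 myotubes, the multinucleated muscle cells that this myoblast line forms when it leaves the cell cycle and fuses. Members were the rows of the count table whose symbol follows the histone naming pattern (H1f, H2ac, H2bc, H3c, H4c or H3f) and that held at least 15 counts over the 4 libraries. Of 69 such rows among 23282 features, 29 were members, and 13 of the others had 0 counts in every library. The gene names of the table place 25 members in the histone gene clusters and leave 4 as replacement histones (H1f0, H1f10, H3f3a and H3f3b). The pattern chose members by name and total count and not by treatment. At the count minimum, H2ac8 with 15 counts and H1f6 with 17 lay just inside, and H3c13 with 12 and H2bc22 with 11 lay just outside.

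All cultures had been deprived of steroids. They then received vehicle or 1 µM dexamethasone, a synthetic glucocorticoid, for 2 h, with 2 libraries per group. The line is female mouse skeletal muscle per the labels, and nothing in them says that the libraries of a group came from separate cultures, so p-values measure the spread between these libraries, which may be technical. Totals ran from 19631435 counts (vehicle replicate 1) to 88596296 (dexamethasone replicate 2). The treatment was visible in Fkbp5, a glucocorticoid-induced gene, at 400 and 819 counts in vehicle and 30537 and 65051 after dexamethasone. The libraries also split by replicate number. All 10 myotube markers listed were detected, and their summed level was 129300 and 124700 in the replicate 1 libraries (CPM, counts relative to the TMM-scaled library size) against 45780 and 44700 in the replicate 2 libraries. Most of this sum was Ttn, at 118100 and 113300 against 41050 and 39930 CPM. Of the 10 markers, 9 were higher in both replicate 1 libraries (31.8% of all genes). The other, Mymk, had 175.8 and 208.2 against 173.3 and 207.8 CPM. In bulk RNA, fewer cells of a type and less RNA per cell cannot be told apart.

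Histones are the proteins around which DNA is wound. Cluster histone genes supply the bulk of new histone during S phase. Most have no introns, and their messenger RNA normally ends just after a short hairpin, the stem-loop, instead of in a poly(A) tail; the stem-loop binding protein, encoded by Slbp, holds this hairpin and directs its processing. Replacement histone genes are transcribed throughout the cell cycle and in cells that no longer divide, and they make polyadenylated RNA. H3f3a and H3f3b both encode the replacement form of H3, and H1f0 encodes a linker histone that accumulates in differentiated cells.

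The stem-loop was located first, because it sets where the RNA of a cluster gene normally ends. The pattern GGNNCTTNNNAGNNCC was searched on the transcribed strand after the stop codon in GENCODE M21 transcripts (GRCm38). It was found in 19 of the 25 cluster members and in 24 of the 38 cluster genes under the count minimum. Among protein-coding genes with an annotated 3' UTR of at least 16 bases, 207 of 21070 held it (0.982%). The cluster genes were counted without that limit, so a gene annotated only to its stop codon could give no match. H2bc18, annotated over 381 bases, gave none. A missing match was therefore not read as a missing hairpin. The 19 members held 5 different versions of the 16 letters. They are shown here to let the versions be compared, with 2 members for the most common and 1 for each other, with the hairpin in capitals and the bases on either side in lower case:

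H1f2: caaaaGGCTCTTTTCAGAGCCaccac

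H2bc8: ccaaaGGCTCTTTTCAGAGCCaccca

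H2bc3: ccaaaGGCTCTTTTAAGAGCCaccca

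H2ac20: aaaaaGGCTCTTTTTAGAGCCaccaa

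H4c4: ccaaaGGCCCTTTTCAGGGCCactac

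H4c9: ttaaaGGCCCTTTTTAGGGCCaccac

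The hairpin of H1f2 and H2bc8 was shared by 11 members from the H1, H2A, H2B and H3 families. The H4 members had a GGCCC stem in place of GGCTC. Counted genes differed from the others in how far the annotated transcript runs on past the hairpin. Among members the median was 454 bases (range 23 to 4884), and 15 of 19 had more than 100. Among the cluster genes under the count minimum the median was 35 (range 3 to 1214), and 5 of 24 had more than 100. Annotated length and shared sequence moved with this. The median exon length was 912 bases in members and 474 in the others, and a median of 28.9% and 73.8% of their 50-letter stretches also occurred in a transcript of another gene. The part of either in the counts was not tested. A row listed at 0 was therefore not read as a silent gene.

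**Figure D1:**
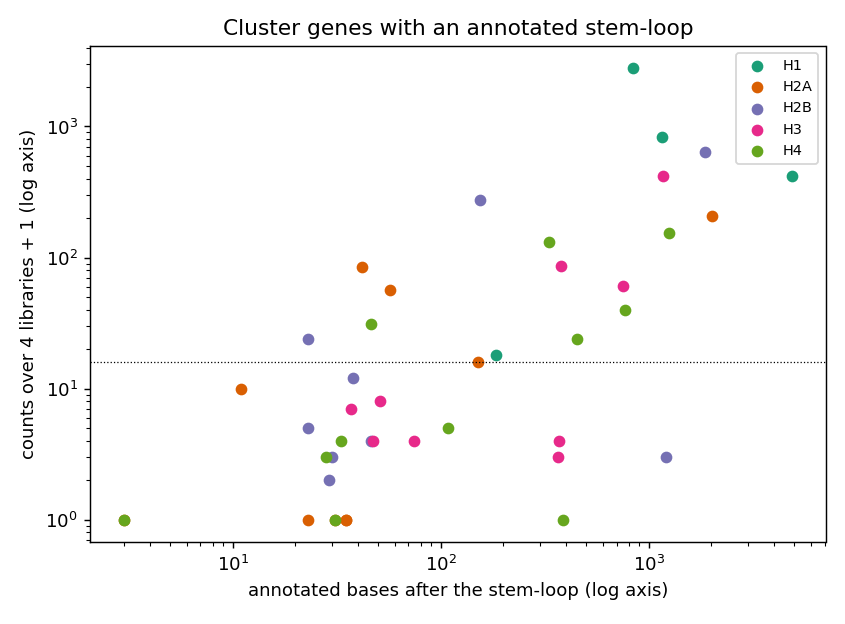
Counts summed over the 4 libraries (plus 1, log axis) against the annotated bases after the stem-loop (log axis) for the cluster genes with a stem-loop, coloured by histone family. The dotted line is the minimum of 15 counts for membership; 15 of the 19 genes above or on it lie past 100 bases, against 5 of the 24 below it.

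The promoters were searched for elements known from histone genes. RefSeq sequences (GRCm38.p6) were matched by symbol for 26 of the 29 members, and H2bc4, H2bc21 and H4c14 had no entry. The 120 bases before the annotated start are printed for 4 members with different arrangements, with matches to TATAAA (the TATA box), CCAAT and ATTTGCAT (the octamer bound by Pou2f1 and its relatives) in capitals on either strand. They are from chr13:23738687-23738806 on the plus strand for H1f2, chr13:23571280-23571399 on the plus strand for H2bc8, chr13:23574261-23574380 on the plus strand for H2ac7 and chr11:116024505-116024624 on the minus strand for H3f3b:

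H1f2: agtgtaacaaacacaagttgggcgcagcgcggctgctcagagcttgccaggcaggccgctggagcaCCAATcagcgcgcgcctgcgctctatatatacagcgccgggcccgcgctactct

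H2bc8: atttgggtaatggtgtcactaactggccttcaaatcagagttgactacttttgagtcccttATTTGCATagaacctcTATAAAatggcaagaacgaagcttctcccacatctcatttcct

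H2ac7: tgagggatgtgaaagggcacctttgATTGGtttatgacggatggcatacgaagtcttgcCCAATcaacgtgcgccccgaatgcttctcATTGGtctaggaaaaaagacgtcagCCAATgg

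H3f3b: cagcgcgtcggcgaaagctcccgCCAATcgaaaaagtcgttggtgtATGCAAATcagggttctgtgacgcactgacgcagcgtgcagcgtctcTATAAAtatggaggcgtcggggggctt

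H2bc8 has an octamer followed by a TATA box, an arrangement known from H2B genes, and the replacement gene H3f3b has all 3 elements. Over the 250 bases before the start, the octamer was present in 6 of 14 cluster H2B promoters and 6 of 17 cluster H2A promoters, against 1.6% of all 32851 promoters. CCAAT was present in all 14 H2B, all 17 H2A and all 6 cluster H1 promoters but in 3 of 11 H4 promoters, against 33.8% of all. H4 promoters instead held GGTCC, the core of the H4 element bound by HINFP, in 10 of 11 (39.8% of all). H2A and H2B genes often lie head to head, so their windows can overlap. The TATA box, CCAAT and octamer letters were all absent from these windows for H3c14, H3c15, H4c8, H1f0 and H1f10. TATAAA was found in 13 of the 22 cluster members with an entry and in 15 of 36 cluster genes under the count minimum, against 12.4% of all.

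Levels were compared next. H3f3a had 50.7 and 40.2 CPM in the vehicle libraries (replicates 1 and 2) and 45.4 and 38.9 after dexamethasone, the highest of the members. H1f0 had 37.3 and 22.8 in vehicle and 39.0 and 24.9 after dexamethasone, and H3f3b had 29.2 and 11.6 against 23.3 and 12.8. In all 3 replacement genes the replicate 1 libraries lay above the replicate 2 libraries and the treatment groups overlapped. H1f10, a linker histone gene, held 31 counts in all and was too low to test.

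Among cluster genes, the linker histone gene H1f2 was highest, with 487 and 376 counts in vehicle and 806 and 1099 after dexamethasone. That is 26.1 and 9.91 CPM in vehicle against 26.9 and 11.8 CPM. H2bc4, an H2B gene, followed with 15.8 and 7.38 CPM in vehicle and 16.7 and 6.75 after dexamethasone. Both genes were higher in replicate 1 than in replicate 2, whichever the treatment. Together they held 48.8% of the 9172 counts of the 25 cluster members. By family, H1 genes held 45.4% of these counts, H2B genes 39.8%, H3 genes 6.14%, H2A genes 4.63% and H4 genes 4.08%, although a nucleosome holds the 4 core histones in equal number.

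H2bc4 (1156 exon bases over a span of 8710) and H2bc6 (4446 over 37455) are annotated with introns, unlike the other cluster members. Per kilobase of annotated exon, the mean over the 4 libraries was 15.1 CPM for H1f0, 12.5 for H3f3a, 11.97 for H1f2, 11.7 for H2bc18, 10.1 for H2bc4 and 6.46 for H3f3b. The libraries of neighbours in this order overlapped: H1f2 ran from 6.35 to 17.2 and H3f3a from 11.1 to 14.5 CPM per kilobase. H2bc8 came next with 3.45, H1f4 with 2.80, and the remaining tested members lay at 1.51 (H3c14) or below. H2bc18 is annotated over 381 bases, overlaps another gene of its strand, and has 100% of its 50-letter stretches in transcripts of other genes, so its level is uncertain. Shared reads also make levels uncertain for H1f4 and H2bc6, which overlap each other, and for H3c14, H2ac6 and H1f10, each of which overlaps another gene of its strand.

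**Figure D2:**
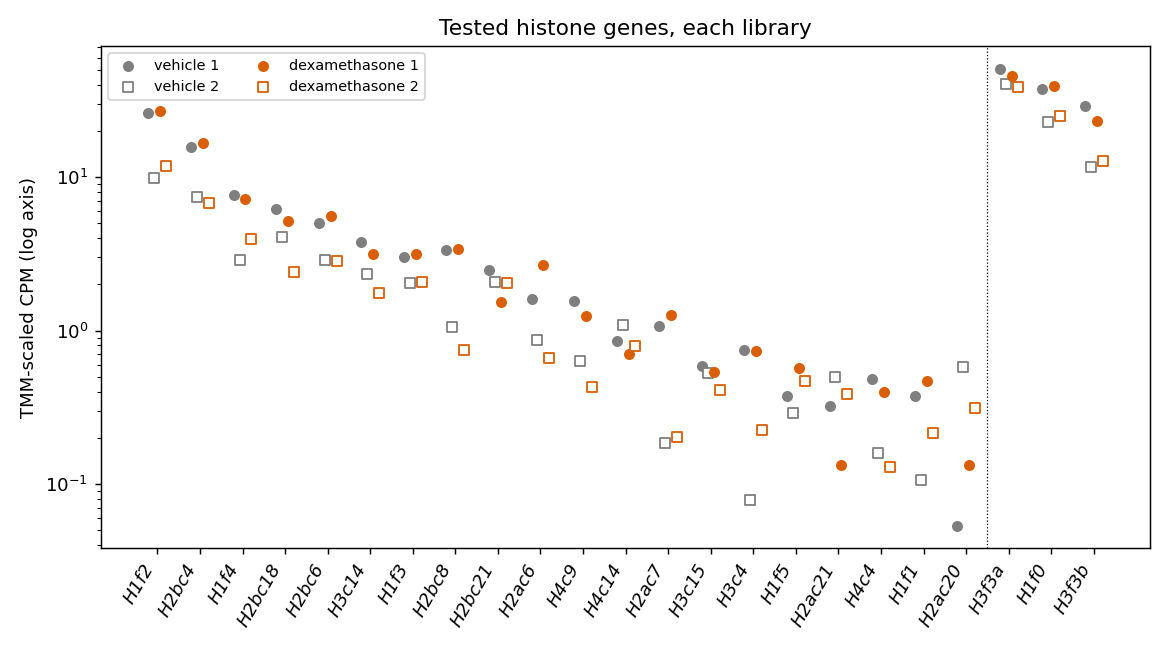
TMM-scaled CPM (log axis) of the 23 tested histone genes in each library, cluster genes left of the dotted line and replacement genes right of it; grey is vehicle, orange dexamethasone, filled circles replicate 1 and open squares replicate 2. H1f2 is the highest cluster gene (9.91 to 26.9 CPM), and in most genes circles lie above squares while colours mix.

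The comparison of the design, dexamethasone against vehicle, gave no change in a histone gene that passed the test. Of 23 members abundant enough to test (20 cluster and 3 replacement), 0 passed an adjusted p under 0.05 in edgeR's quasi-likelihood test with Benjamini-Hochberg adjustment over all 13285 tested genes, against 0.0376% of all genes (0.0376% higher and 0% lower), and 0 had an unadjusted p under 0.05 (4.09% of all genes higher and 1.69% lower). By DESeq2 0 members were called, beside 2.18% of all genes (1.78% higher and 0.399% lower), and limma-voom called 0. With the replicate number as a block, edgeR called 0 members beside 12.7% of all genes (6.87% higher and 5.78% lower). In that fit 1 member had an unadjusted p under 0.05, beside 3409 of all 13285 genes. It was H2bc18, with a log2 fold change of -0.53 (edgeR with the block, unadjusted p 0.0173, adjusted 0.0976). The 20 cluster genes split into 10 with a positive and 10 with a negative log2 fold change, with a median of -0.03 beside -0.00 over all genes tested. In 1 tested cluster gene the dexamethasone pair lay wholly above the vehicle pair (15% of all genes), and in 2 it lay wholly below (12.9%).

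In H1f2 the log2 fold change was 0.10 (SE 0.617, 95% interval -1.53 to 1.74). In H2bc4 it was 0.02 (SE 0.583, interval -1.52 to 1.56), and it turned to -0.03 with scaling to library size alone. H1f4, H2bc6 and H1f3 had values of 0.09, 0.08 and 0.06. Except in H1f3 (-0.95 to 1.06), these intervals include both a doubling and a halving, so this fit cannot tell changes of that size from none. The fit leaves out the replicate number, so its intervals also hold the difference between numbers. Within replicates 1 and 2 the differences were 0.04 and 0.25 in H1f2, 0.08 and -0.13 in H2bc4, and -0.09 and 0.43 in H1f4. They were 0.13 and -0.04 in H2bc6 and 0.08 and 0.03 in H1f3. H3f3a was the most closely measured member, at -0.11 (SE 0.182, interval -0.59 to 0.38). H1f0 was at 0.09 (interval -0.82 to 1.00) and H3f3b at -0.17 (interval -1.60 to 1.26).

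The cluster gene above vehicle in both dexamethasone libraries was H1f5, a linker histone gene, at 0.38 and 0.29 CPM in vehicle and 0.57 and 0.47 after dexamethasone. Without a block, its log2 fold change of 0.65 (SE 0.441) had the smallest unadjusted p among the members (edgeR 0.206, adjusted 1.00). This value rests on 7 and 11 counts in vehicle against 17 and 44. The 2 genes below vehicle were H2bc21, with 2.47 and 2.08 CPM in vehicle and 1.53 and 2.06 after dexamethasone (log2 fold change -0.33, SE 0.319), and H4c14, with 0.86 and 1.08 against 0.70 and 0.79 (-0.38, SE 0.364). In H2bc21 the nearest libraries of the groups differ by little, and neither gene passed. H1f1, also a linker histone gene, had 0.57 (SE 0.838) from 7 and 4 against 14 and 20 counts.

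Cluster genes fall into a large group on chromosome 13 and a small one on chromosome 3, a split made after the values were seen and given without a test. The 7 tested genes on chromosome 3 all had a negative log2 fold change, from -0.59 (H2ac21) to -0.26 (H3c15), with a median of -0.38. In 6 of these 7, dexamethasone was also the lower within each replicate number; the share of all genes doing so is not given here. Over all tested genes 6601 fitted values were positive and 6684 negative. The 7 may not be separate measurements. Stretches of 50 letters also found in other genes' transcripts made up 100% of H2bc18 and H3c14, 64.8% of H2ac21, 63.5% of H3c15 and 55% of H2ac20. In H4c14 they made up 1% and in H2bc21 0%. For H2bc18, the most abundant of the 7, the difference was -0.27 in replicate 1 and -0.75 in replicate 2, and the fitted value was -0.46 (SE 0.469). H3c14 was at -0.32, H2bc21 at -0.33 and H4c14 at -0.38. The 13 tested genes on chromosome 13 had 10 positive and 3 negative values, with a median of 0.09. None of these 20 genes passed the test, and with a library left out 5 (without dexamethasone replicate 2) to 7 of the chromosome 3 genes had a negative value.

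**Figure D3:**
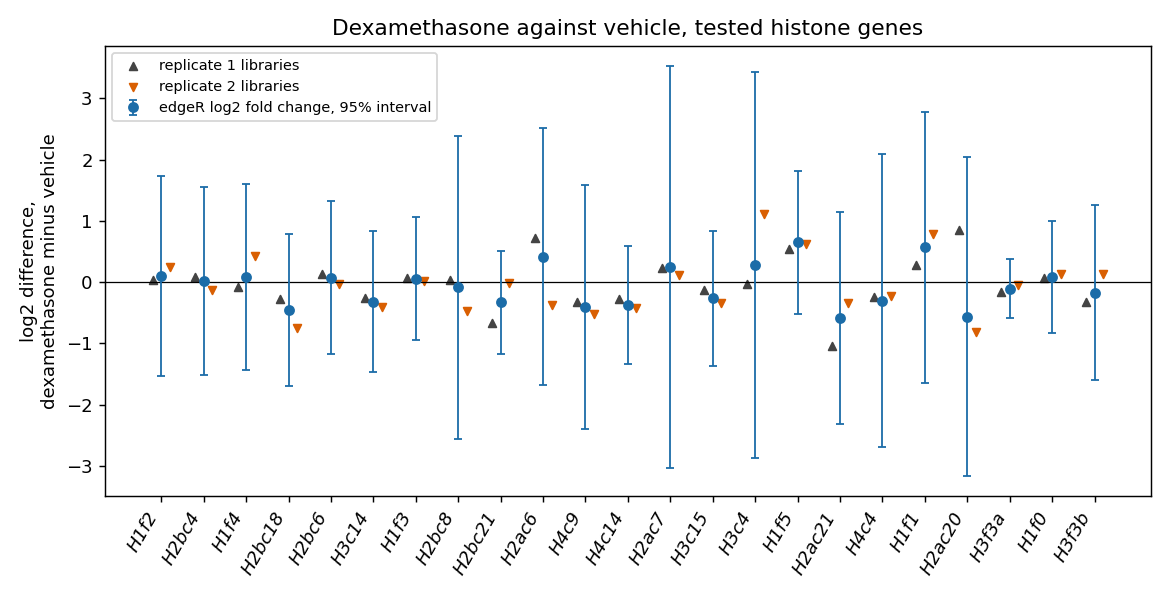
Log2 difference of dexamethasone minus vehicle for the 23 tested histone genes; circles are edgeR's fold change with its 95% interval, and triangles the difference within replicate 1 (upward) and replicate 2 (downward). Every interval includes 0; H1f5 has the highest fitted value (0.65) and H2ac21 the lowest (-0.59).

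The summed share of the cluster genes differed more between replicate numbers than between treatments. The 25 cluster members together took 78.4 CPM of vehicle replicate 1, here raw counts over the library total, (74.6 to 82.4 as the 95% Wilson interval) and 76.2 of dexamethasone replicate 1 (73.3 to 79.3), against 43.4 of vehicle replicate 2 (41.3 to 45.6) and 41.0 of dexamethasone replicate 2 (39.7 to 42.4). Replicate 1 was thus 1.81 times replicate 2 in vehicle and 1.86 times after dexamethasone, while dexamethasone was 0.973 times vehicle in replicate 1 and 0.946 times in replicate 2. The parts of this sum went different ways in replicate 2, where the cluster H1 genes took 16.6 CPM in vehicle and 19.5 after dexamethasone, and the core histone genes 26.8 and 21.5. In replicate 1 dexamethasone was 0.992 times vehicle for the H1 genes and 0.956 times for the core genes. All 5 tested H1 genes had a positive log2 fold change (median 0.10), and the 15 tested core genes had a median of -0.30, none of them past the test. This contrast overlaps the split by chromosome. All 5 H1 genes lie on chromosome 13, and the 7 tested chromosome 3 genes, all negative, are core genes. Core genes on chromosome 13 ran from -0.41 (H4c9) to 0.41 (H2ac6). The 4 replacement genes had ratios of 1.38 and 1.23 between replicate numbers, and dexamethasone was 0.893 times vehicle in replicate 1 and 1.0 times in replicate 2. These intervals treat the reads of a library as independent and cover counting error only. The reads carry no molecular identifiers, so copies of the same molecule could make the intervals too narrow. Replicate number was not tested as an effect.

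**Figure D4:**
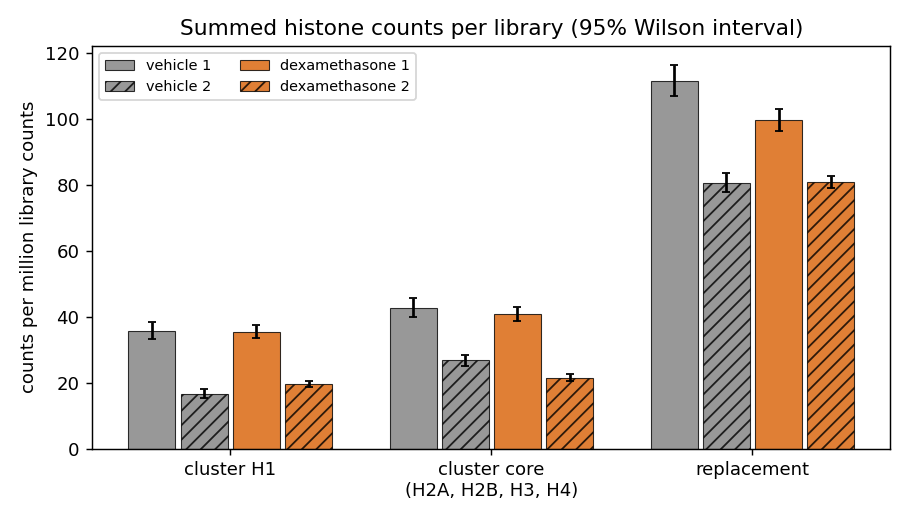
Summed CPM (raw counts over the library total) for the 6 cluster H1 genes, the 19 cluster core histone genes and the 4 replacement genes in each library, with 95% Wilson intervals; hatched bars are replicate 2. Each replicate 1 bar is above both replicate 2 bars of its set, and between treatments the replicate 2 bars differ most for the core genes (26.8 against 21.5) and the H1 genes (16.6 against 19.5).

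Both replicate 1 libraries exceeded both replicate 2 libraries in 15 of 20 tested cluster genes and in all 3 tested replacement genes, where 31.8% of all genes did so. The reverse order held in 2 cluster genes and in 32.1% of all genes. A difference of at least 2-fold in both treatments was present in 7 cluster genes (H1f2, H2bc4, H2bc8, H4c9, H2ac7, H3c4 and H4c4) and in 3.18% of all genes. The widest differences were in core histone genes with few counts. H2ac7, an H2A gene, had 1.07 CPM in vehicle replicate 1 and 1.27 in dexamethasone replicate 1, against 0.18 and 0.20 in the replicate 2 libraries. H2bc8 had 3.33 and 3.40 against 1.05 and 0.75 CPM, and H3c4, an H3 gene, 0.75 and 0.73 against 0.08 and 0.22, the lowest of these from 3 counts. H4c9 had 1.56 and 1.23 against 0.63 and 0.43 CPM. Stretches of 50 letters also found in other genes' transcripts made up 67.1% of H2ac7 and 49.7% of H2bc8. They made up 28.9% of H4c9 and 24.8% of H3c4, so these genes may not be separate measurements.

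The same split by chromosome appeared here. Both replicate 1 libraries exceeded both replicate 2 libraries in 12 of the 13 tested genes on chromosome 13 (31.8% of all genes). The 13 had median log2 differences of 1.38 in vehicle and 1.30 after dexamethasone. On chromosome 3 the medians were 0.15 and -0.17. There H2bc18, H3c14 and H3c15 were higher in replicate 1, while the neighbours H2ac20 and H2ac21 went the other way. H2ac20 had 1 and 4 counts in the replicate 1 libraries and 22 and 29 in the replicate 2 libraries, or 0.05 and 0.13 against 0.58 and 0.31 CPM. H2ac21 had 0.32 and 0.13 against 0.50 and 0.39 CPM. H2bc21, which lies beside H2ac20, and H4c14 overlapped between the numbers. Genes are annotated on the other strand over both H2A genes, and also over H2ac6, H2ac7 and H2bc18, which were higher in replicate 1. How strand was used in counting is not given in the sources used here.

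**Figure D5:**
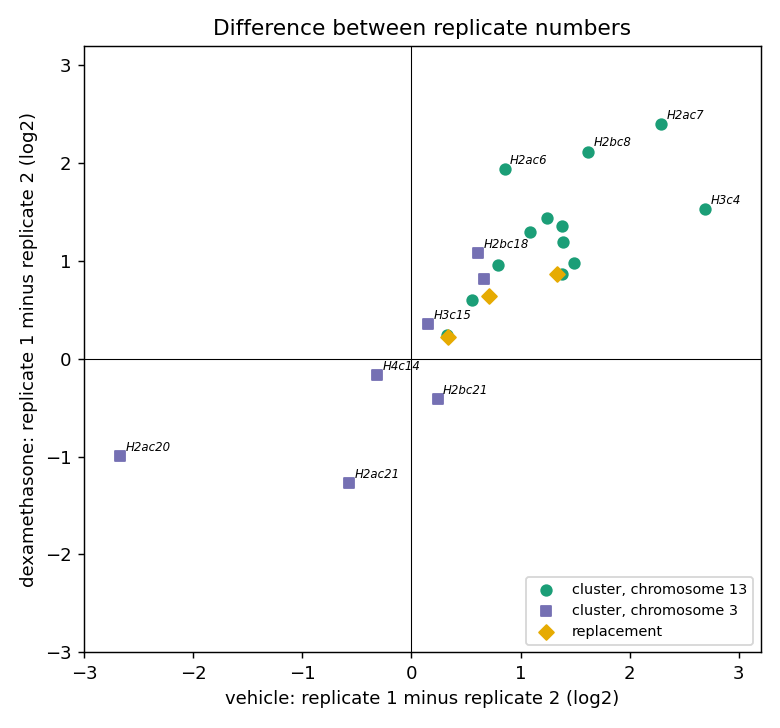
Log2 difference of replicate 1 minus replicate 2 in vehicle (horizontal) and dexamethasone (vertical) for the 23 tested histone genes. The 13 cluster genes of chromosome 13 all lie above 0 on both axes, and H2ac20, H2ac21 and H4c14 of chromosome 3 lie below 0 on both. The share of all genes on the same side of 0 on both axes is not given here.

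Markers of other states were measured beside this difference. The 18 cycling-cell genes listed, among them Mki67, Top2a and the Mcm genes, were all detected, with 96.1 and 80.4 summed CPM in vehicle replicates 1 and 2 and 101 and 94.5 after dexamethasone. Rrm2, a ribonucleotide reductase subunit of S phase, stood apart in this list, at 5.09 and 3.98 CPM in vehicle and 14.1 and 11.4 after dexamethasone (log2 fold change 1.49, SE 0.237, edgeR unadjusted p 0.00206, adjusted 0.201). The list's median log2 difference between replicate numbers was 0.27 in vehicle and 0.08 after dexamethasone, beside 0.82 and 0.97 for the tested cluster histone genes and 1.56 and 1.60 for the 10 myotube markers. The 4 myoblast genes (Myf5, Pax7, Myod1 and Pax3) summed to 62.2 and 63.1 CPM in vehicle and 43.2 and 43.3 after dexamethasone. Their log2 fold changes were 0.30 in Myf5, -0.80 in Pax7, -0.27 in Myod1 and -0.94 in Pax3, and none passed the test. The 3 fibroblast genes summed to 6.81 and 4.72 CPM in vehicle and 9.41 and 12.2 after dexamethasone. Pdgfra had a log2 fold change of 1.04 (edgeR adjusted p 0.503) and Dpt -1.51 (0.896), and Thy1 was listed at 0 in every library. The 356 tested genes with no annotated intron, histone members left out, had medians of -0.02 and 0.01, and 30.3% of them were higher in both replicate 1 libraries. The part of cell composition or library make-up in the histone difference was not tested.

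The genes that transcribe, process and deliver histones were tested in the same fit. Of 30 tested genes of histone gene transcription and 3' end processing, 0 passed in either direction (0 also at an unadjusted p under 0.05 in edgeR), with a median log2 fold change of 0.03 and a range of -0.40 to 0.30. Slbp had 8.47 and 11.2 CPM in vehicle and 9.51 and 11.04 after dexamethasone. Npat, the coactivator that gathers at the histone clusters, had 64.4 and 47.4 CPM against 63.4 and 50.3. Casp8ap2, a partner of Npat in histone locus bodies, had 43.5 and 35.8 against 48.1 and 38.6. Lsm10 and Lsm11, the proteins particular to the U7 particle that cuts histone RNA, had log2 fold changes of -0.07 and 0.25. The groups overlapped in all 5 genes. Slbp and Lsm10 were lower in replicate 1 than in replicate 2, the opposite of most cluster histones, while Npat, Casp8ap2 and Lsm11 were higher. Hinfp was listed at 0 in every library.

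Of 37 tested histone chaperone genes, 0 passed and 0 had an unadjusted p under 0.05 in edgeR, with a median of 0.00. Both dexamethasone libraries lay above vehicle in 3 (15% of all genes) and below it in 4 (12.9%). Hira, which deposits the replacement H3 outside replication, was at 130 and 136 CPM in vehicle and 131 and 135 after dexamethasone. Daxx and Atrx, which deposit it at repeats and telomeres, had log2 fold changes of 0.06 and -0.04. Chaf1a, of the assembly factor that works behind the replication fork, was at 0.22, and the H3-H4 chaperones Asf1a and Asf1b at -0.18 and 0.23. The smallest unadjusted p was that of Anp32a, whose family binds histones, at 20.4 and 30.6 CPM in vehicle and 33.7 and 46.2 after dexamethasone. Its log2 fold change was 0.64 (SE 0.277, edgeR unadjusted p 0.0726, adjusted 0.974). Nap1l1, a chaperone of H2A and H2B, was at -0.26, Nasp at -0.24 and Set at -0.21, none past the threshold. Mtpap, a poly(A) polymerase from the list of transcription and 3' end processing, was at 0.30. These statements are from the fit without a block; with the replicate number as a block, edgeR called Anp32a, Nap1l1 and Mtpap.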

How the data were processed

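RNA retained on chromatin was sequenced in 4 libraries. The deposited table holds raw read counts per gene, in whole numbers; the submitters' processing notes name TopHat2 2.0.13, SAMtools 1.1, HTSeq 0.6.1, DESeq2 1.18.1 and the build mm9, without roles. Strand use, exon or gene counting and the handling of reads matching several genes are not given in the sources used here, and the labels name both a total RNA and an mRNA kit. Repeated rows (51 of 23333) were used once. Genes were filtered with filterByExpr (minimum count 10, minimum total 15) and tested with edgeR 4.0.16 (R 4.3.3), TMM scaling, group as the only term, with DESeq2 1.42.0 and limma 3.58.1 as alternatives; SEs are the fold change over the root of F. Differences within a replicate number are log2 CPM with a prior count of 2. Tests were checked on simulated libraries with no difference between replicate numbers, so that check does not cover such a difference. Cluster genes are those whose gene name says so, rather than all but H1f and H3f symbols as first planned; H2A variants with newer symbols (H2az1, H2ax and others) do not match the pattern. Gene lengths, overlaps and chromosomes come from GENCODE M21, matched on Ensembl identifiers, which is another build than the authors'. Named genes were all tested replacement genes, the 12 most abundant cluster genes, the 8 cluster genes with the smallest p, and set pathway genes with the 5 smallest p among them; H2ac7, H2ac20, H3c4, H4c4, H2bc3, Rrm2, Pdgfra and Dpt were named after their values or sequences were seen. Members and lists were chosen with earlier results of these data known.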

Additional observations from a re-analysis of the deposited data

How the results depend on the processing

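No histone gene was called under any alternative run: DESeq2 size factors, library size only, no low-count filter, at least 10 counts in every library, DESeq2, limma-voom, the replicate block, or any library left out. The count over all genes was 5 in the main test, 23 without a filter, 289 with DESeq2, 0 with limma-voom and 1681 with the replicate block, and 4 (without vehicle replicate 1) to 64 (without either dexamethasone library) with a library left out. The labels do not say that a replicate number marks a shared batch, and there are 2 pairs; same-numbered libraries deviated together across genes (r = 0.734). The block called 3 of the 67 tested pathway genes, beside 12.7% of all genes. They were Anp32a (0.65, edgeR adjusted p 0.00216), Mtpap (0.31, 0.0209) and Nap1l1 (-0.26, 0.0351). Block results for Fkbp5, Rrm2 and the other marker genes are not given here. The lone library left in a group was assumed to vary like the other group.

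The median log2 fold change of cluster genes ran from -0.542 to 0.546 with a library left out, and that of replacement genes from -0.27 to 0.484. Splitting by symbol alone, the split first planned, moved the cluster median to -0.30, with 5 positive and 10 negative values. The cluster share in vehicle replicates 1 and 2 and dexamethasone replicates 1 and 2 was 95.68, 48.35, 92.61 and 45.79 CPM without the 10 most abundant genes in the total, and 53.59, 32.66, 51.41 and 28.62 without H1f2.

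Signs turned with the full set of libraries for H2bc4 (-0.0263 with library size only, -0.0784 with limma-voom, -0.0234 with the replicate block), for H2bc6 (-0.0152) and H2ac6 (-0.074) with limma-voom, for Npat (-0.0111 with library size only) and for Hira (0.0141 without a filter, 0.00124 with 10 counts in every library). The cause was not tested. With a library left out, the sign turned for these genes within these ranges: H3f3a -0.268 to 0.0693, H1f0 -0.27 to 0.484, H3f3b -0.697 to 0.634, H1f2 -0.605 to 0.957, H2bc4 -0.769 to 0.658, H1f4 -0.469 to 0.924, H2bc18 -1.09 to 0.0076, H2bc6 -0.478 to 0.514, H3c14 -0.776 to 0.0512, H1f3 -0.273 to 0.355, H2bc8 -1.52 to 0.934, H2ac6 -0.874 to 1.13, H4c9 -1.31 to 0.33, H1f1 -0.236 to 1.58, Slbp -0.119 to 0.28, Npat -0.181 to 0.26, Casp8ap2 -0.0394 to 0.278, Lsm10 -0.229 to 0.129, Lsm11 -0.0139 to 0.482, Hira -0.03 to 0.0306, Daxx -0.0927 to 0.229, Atrx -0.183 to 0.115, Asf1a -0.54 to 0.292 and Asf1b -0.0858 to 0.605. None of these values was past the threshold. Replication and the low counts of most core histone genes limit what could be called.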
